A study of Mus musculus with 14 samples.

Results

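Chemokine ligand genes were examined in bulk RNA-seq of 14 female mouse hearts. The 10 genes were Ccl2, Ccl6, Ccl7, Ccl8, Ccl9, Ccl24, Cxcl12, Cxcl14, Cxcl16 and Cx3cl1, taken from the 42396 genes of the deposited count tables. They were kept where they exceeded 1 CPM (a gene's read count scaled to the library's total) in at least 1 library, and all 10 did. The member nearest to that limit was Ccl24, whose highest library held 2.31 CPM before normalisation, followed by Ccl7 with 3.32 CPM, and no listed gene fell below it. Of 31 other chemokine ligand genes looked up in the same tables, 13 exceeded the limit.

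All hearts came from FS6KD mice, a model of mitochondrial cardiomyopathy in which a gene trap in both Ndufs6 alleles lowers a subunit of respiratory complex I. The line has a mixed genetic background. In the knockout experiment, 4 Atf3+/+FS6KD hearts were compared with 4 Atf3-/-FS6KD hearts at 12 weeks. The Atf3 deletion had been made by CRISPR-Cas9 in FS6KD eggs between exons 2 and 4, and the founders had been intercrossed, so it was carried by all cells. In the AAV experiment, 3 FS6KD hearts labelled MyoAAV2-shCtrl were compared with 3 labelled MyoAAV2-shAtf3. MyoAAV2 is an adeno-associated virus directed to muscle, given here to neonatal mice with a short hairpin RNA against Atf3 or a control hairpin, and the design text describes a collection after 12 weeks. The age of these hearts is not given more closely in the sources used here. Whole hearts were measured, so fewer cells of a type and less RNA per cell cannot be told apart. The study calls the 4 knockout replicates of each genotype biological. For the AAV hearts the sources used here do not say that the replicates were separate animals, and those p-values then measure only the spread between these samples, which may be technical.

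Atf3 itself did not check the labels. Given in replicate order, as all values per library are, it was at 25.8, 6.89, 6.91 and 6.36 CPM in the Atf3+/+FS6KD hearts, against 25.6, 37.6, 22.7 and 14.3 CPM in the Atf3-/-FS6KD hearts. Exons outside the deletion can still give reads, so these reads cannot stand for the intact transcript. The AAV libraries had Atf3 levels of 10.1, 13.3 and 14.1 CPM where labelled shCtrl and 21.2, 12.1 and 16.5 CPM where labelled shAtf3. The columns of the deposited AAV table also carry names opposite to the labels of their libraries, so every AAV direction below holds only if the labels are right. The same is true of each difference between the experiments, in sign, size and call, because it subtracts the AAV effect. Ndufs6 was at 2.34 to 3.79 CPM in the 14 libraries. Total counts were 33914931 to 134920825 in the knockout experiment, with replicates 3 and 4 of each genotype deeper than replicates 1 and 2, and 30085432 to 40534913 in the AAV experiment.

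Chemokines are small secreted proteins that steer the movement of leukocytes through G protein-coupled receptors. They are sorted by the spacing of their first cysteines into CC, CXC and CX3C ligands, and scavenging receptors such as Ackr2 and Ackr3 bind them without the usual G protein signal. In the injured heart, ligands of Ccr2 draw monocytes from the blood, whereas Cxcl12 is made steadily and retains progenitor cells and lymphocytes through Cxcr4. Cxcl16 and Cx3cl1 differ from the rest in that they are made as transmembrane proteins from which proteases release the soluble ligand. Atf3 is a stress-induced basic leucine zipper factor of the ATF/CREB family, known in macrophages as a repressor of inflammatory genes, and its loss is the contrast of the knockout experiment.

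The 10 genes fall into 6 CC, 3 CXC and 1 CX3C ligand, and the codons of the first cysteines show this division. The stretches below are printed 5′ to 3′ on the coding strand from the GENCODE transcripts of GRCm38, with the first pair of cysteine codons of the chemokine fold in capitals. Shown are Ccl2 and Cxcl16, whose groups did not overlap in the knockout comparison, the neighbours Ccl6 and Ccl9, the most abundant ligand Cxcl12, and the CX3C ligand.
Ccl2: ccactcaccTGCTGCtactcattc
Ccl6: tcttcagacTGCTGCttctcttat
Ccl9: tcttcagatTGCTGCctgtcctat
Cxcl12: agctaccgaTGCcccTGCcggttcttc
Cxcl16: gctggaagtTGTtctTGTgatcgtacc
Cx3cl1: acgaaaTGCgaaatcatgTGCgacaag
Both codons are adjacent in Ccl2 (chr11:82036497-82036520, plus strand), Ccl6 (chr11:83589377-83589400, minus strand) and Ccl9 (chr11:83575917-83575940, minus strand). In Cxcl12 (chr6:117171499-117171525, plus strand) and Cxcl16 (chr11:70459118-70459144, minus strand) 1 codon lies between them, and in Cx3cl1 (chr8:94778045-94778071, plus strand) 3 codons do. Each printed stretch lies in the coding part of a single exon. The encoded precursors have 148 residues in Ccl2 and 97 in Ccl7 and Ccl8, against 246 in Cxcl16 and 395 in Cx3cl1, the transmembrane ligands.

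By position, 6 of the 10 genes are on chromosome 11. In the RefSeq annotation of GRCm38.p6, Ccl2 (82035577 to 82037452), Ccl7 (82045712 to 82047525) and Ccl8 (82115185 to 82116799) stand in a row on the plus strand, with 8259 bases between Ccl2 and Ccl7 and with Ccl11 and Ccl12 between Ccl7 and Ccl8. Ccl9 (83572917 to 83578636) and Ccl6 (83587886 to 83593087) are neighbours on the minus strand, 9249 bases apart. Cxcl16 (70454389 to 70459984, minus strand) lies apart on the same chromosome. The remaining genes are Ccl24 on chromosome 5 (135569935 to 135573123, minus), Cxcl12 on chromosome 6 (117168535 to 117181368, plus), Cx3cl1 on chromosome 8 (94772180 to 94782427, plus) and Cxcl14 on chromosome 13 (56288643 to 56296811, minus).

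Neighbouring ligands are related in sequence, but little of it is identical. The longest run shared by transcripts of a member and any other chemokine ligand was 25 bases, between Ccl6 and Ccl9, and 23 bases between Ccl2 and Ccl7, both shorter than the single-end reads the study states for the knockout experiment. Cxcl16 is an exception of another kind. The tables list a second entry for it, read here as a copy on an alternate locus, with the same value in 14 of 14 libraries, so the level printed for Cxcl16 counts only its own entry. With both entries merged, its log2 fold changes were 0.62 in the knockout and −0.37 in the AAV comparison, as without merging. Ccl9, Cxcl16 and Cx3cl1 also had values that were not whole, in 11, 12 and 6 libraries.

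Because Atf3 binds DNA as a partner of other ATF and AP-1 factors, the promoters of the ligands were read for their motifs. RefSeq promoter windows of GRCm38.p6, 250 bases before to 50 bases after the start site, were at hand for 6 of the 10 genes (Ccl6, Ccl8, Ccl9, Cxcl12, Cxcl14 and Cx3cl1). The CRE/ATF motif TGACGTCA was in none of the 6 windows, against 1.79% of 32851 windows, and an NF-kB consensus was in none, against 0.411%. The AP-1 motif TGANTCA was in 1, that of Ccl9, 53 bases before the start site, against 7.81%, and TATAAA was in those of Ccl8, Ccl9 and Cx3cl1, against 13.6%. Both strands were searched, and a match of these letters is a description, not a site. The AP-1 match of Ccl9 (chr11:83578672-83578701, minus strand) and the TATAAA match of Ccl8 (chr11:82115141-82115170, plus strand) are shown in capitals: the first is the single AP-1 match of the 6 windows, and the second lies 32 bases before the start site. The window of Ccl9 held 3 TATAAA matches on either strand, of which 2 overlap.
Ccl9: atttactctctcTGAATCAatttgaacttt
Ccl8: ttccctgctcccTATAAAaggcagattaga

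Levels between genes were compared as CPM per kilobase of exonic length. Cxcl12 stood far above the rest, with a median of 33.9 CPM per kb over the 14 libraries (range 27.2 to 43.1), and did not overlap any other ligand in any group. Cxcl14 and Ccl6 followed with medians of 9.58 and 9.56 CPM per kb. Ccl8 (4.42), Cx3cl1 (3.99), Ccl9 (2.82), Ccl2 (2.69) and Cxcl16 (2.32) formed a middle range in which neighbours in the order mostly overlapped within each group. Ccl7 (1.68) and Ccl24 (1.05) were the lowest. In plain CPM, Cxcl12 held 65.3% to 82.5% of the summed counts of the 10 genes. The spread between libraries was uneven too: the highest library was 1.58 times the lowest for Cxcl12 and 5.82 times for Ccl8.

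**Figure D1:**
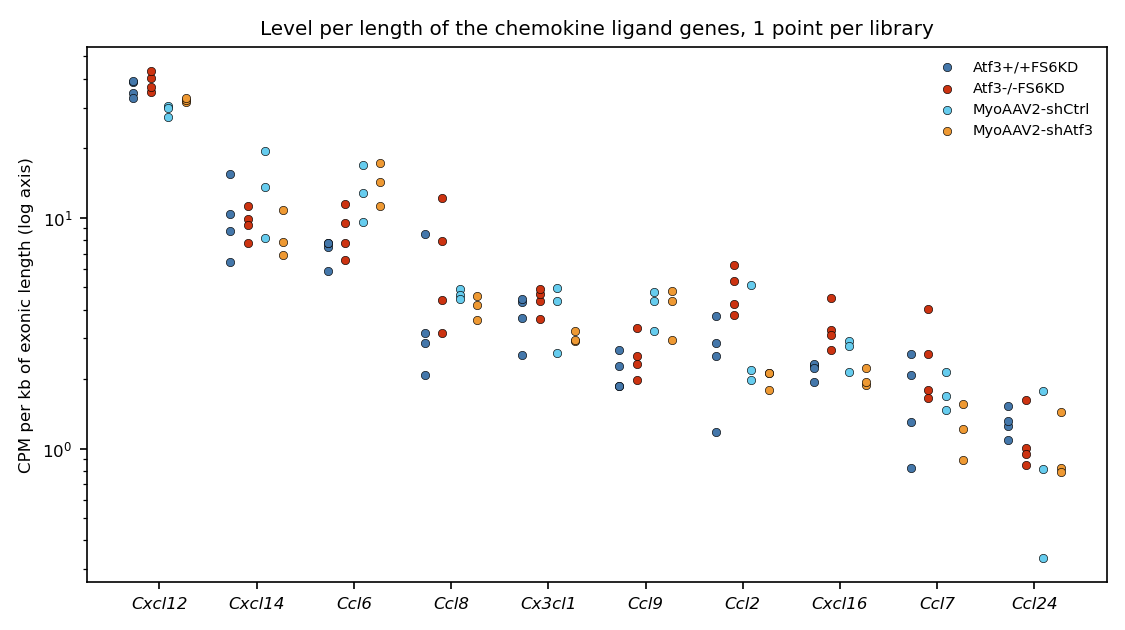
The vertical axis is CPM per kb of exonic length on a log scale, and the horizontal axis gives the 10 ligand genes in order of their median. Each point is 1 library, coloured by group. Cxcl12 lies at 27.2 CPM per kb or more in every library, and the genes from Ccl8 to Cxcl16 overlap.

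In the knockout comparison, no ligand gene passed the adjusted threshold, and most estimates lay on the side of higher levels in Atf3-/-FS6KD. With edgeR, 0 of the 10 reached an adjusted p below 0.05, as did 0 of 15592 genes (0.0%), and 2 of the 10, Cxcl16 and Ccl2, had an unadjusted p below 0.05, against 10.1% of all genes. Both were higher, where 5.41% of all genes were higher and 4.69% lower at that limit. DESeq2 called 1 of the 10 (Cxcl16, adjusted p = 0.0259, 208 genes called in all) and limma-trend 0. The estimate was above 0 for 8 of the 10 genes, against 50.2% of all genes, and below 0 for 2, against 49.8%, with a median log2 fold change of 0.26 against 0.00 over all genes tested. The groups did not overlap for 2 of the 10, again Cxcl16 and Ccl2, against 5.71% of all genes (3.08% with the knockout libraries higher).

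In the AAV comparison, most estimates lay below 0. With edgeR, 0 of the 10 genes passed the adjusted threshold, against 82 of 15225 genes (0.539%), and DESeq2 and limma-trend called none of the 10 either. An unadjusted p below 0.05 was reached by 3, lower for Cxcl14 and Cxcl16 and higher for Cxcl12 in the libraries labelled shAtf3, against 12.7% of all genes (7.65% lower and 5.05% higher). The estimate was below 0 for 7 of the 10 genes, against 50.9% of all genes, and above 0 for 3, against 49.1%, and the median was −0.27 against −0.00 over all genes. Only Cxcl12 had groups that did not overlap, where 18.4% of all genes had such groups and 8.48% had them with the labelled shAtf3 libraries higher.

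The difference between both effects was tested as an interaction over the 14 libraries, and 0 of the 10 ligand genes passed it in edgeR, against 26 of 15708 genes (0.166%). Unadjusted p-values below 0.05 were given by Cxcl16 and Ccl2, 2 of the 10, against 17.0% of all genes. In both the difference was above 0, as in 9.43% of all genes at that limit, with 7.53% below. DESeq2 called Cxcl16 (adjusted p = 0.00668), with 669 genes called in all. The difference was above 0 for 8 of the 10 (50.1% of all genes) and below 0 for 2 (49.9%). These counts hold only with the AAV labels as given, and the difference was not fitted with them exchanged. Of the 10, 6 genes (Ccl2, Ccl7, Ccl8, Ccl9, Cxcl16 and Cx3cl1) had an estimate above 0 in the knockout and below 0 in the AAV comparison, a combination held by 32.0% of 15109 genes tested in both. With the AAV labels exchanged, the sign of each AAV estimate would turn, and the combination would be held by 2 of the 10 (Ccl6 and Cxcl12), against 17.8% of those genes.

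**Figure D2:**
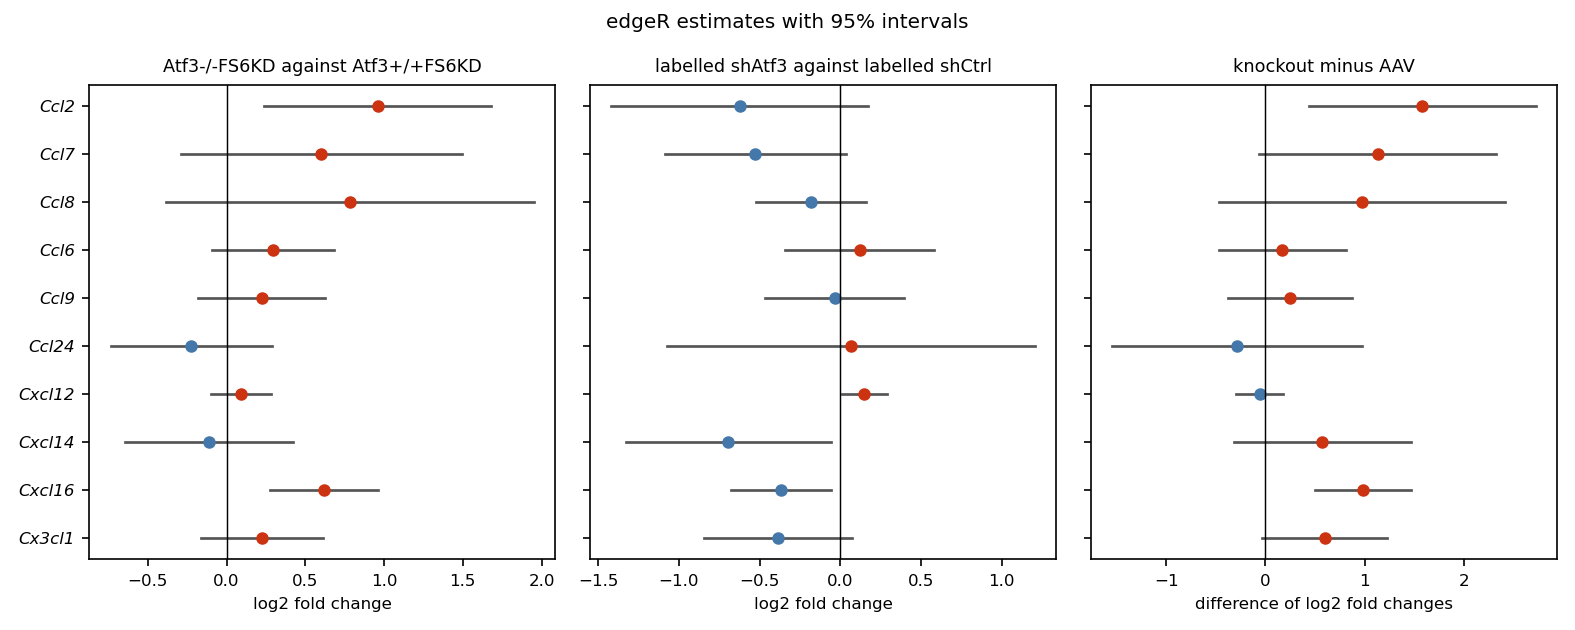
Each row is a ligand gene, and the horizontal axes give the edgeR log2 fold change in the knockout comparison, in the AAV comparison, and the difference of both. Points are estimates (red above 0, blue below) and lines are 95% intervals. The interval includes 0 for 8 of the 10 genes in the knockout comparison, 7 in the AAV comparison and 8 in the difference.

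Cxcl16, the ligand of Cxcr6 on T and NKT cells, had the smallest p of the 10 in both comparisons. It was at 6.24, 6.28, 5.24 and 6.02 CPM in the 4 Atf3+/+FS6KD hearts, against 7.21, 12.1, 8.81 and 8.38 CPM in the Atf3-/-FS6KD hearts. All 4 knockout libraries were above all 4 controls, and the control libraries lay close together. The means were 5.95 ± 0.486 CPM and 9.12 ± 2.09 CPM (SD, n = 4 each), a log2 fold change of 0.62 (SE 0.15, 95% interval 0.28 to 0.96) with an edgeR adjusted p of 0.313. The estimate was 0.61 within the deeper and 0.63 within the shallower libraries, and leaving out 1 library moved it between 0.46 (without Atf3-/-FS6KD replicate 2, the highest) and 0.71.

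Cxcl16 was in the AAV experiment at 7.87, 7.53 and 5.80 CPM in the libraries labelled shCtrl and at 6.04, 5.10 and 5.27 CPM in those labelled shAtf3. The groups overlapped through shCtrl replicate 3 alone, which was below shAtf3 replicate 1. Its log2 fold change was −0.37 (SE 0.14, 95% interval −0.68 to −0.06, edgeR adjusted p = 0.313). The difference between the effects was 0.98 (SE 0.22) with an edgeR adjusted p of 0.0848, ranging from 0.00668 to 0.199 over 19 alternatives, of which 3 passed the threshold.

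Cx3cl1, the ligand of Cx3cr1 on monocytes and resident macrophages, is the other transmembrane ligand. Its levels were 13.0, 8.99, 15.2 and 15.7 CPM in the Atf3+/+FS6KD hearts, against 15.4, 16.5, 17.5 and 12.9 CPM in the Atf3-/-FS6KD hearts. The groups overlapped widely, and the log2 fold change of 0.22 (SE 0.17, edgeR adjusted p = 0.672) turned to −0.03 within the deeper libraries. Labelled shCtrl libraries held 17.5, 15.4 and 9.14 CPM and labelled shAtf3 libraries 10.3, 11.5 and 10.4 CPM. The shAtf3 values lay close together, with shCtrl replicate 3 below them all and the other shCtrl libraries above. The estimate was −0.38 (SE 0.20) with an edgeR adjusted p of 0.471, and without shCtrl replicate 3 it was −0.61 with an edgeR adjusted p of 0.0159.

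**Figure D3:**
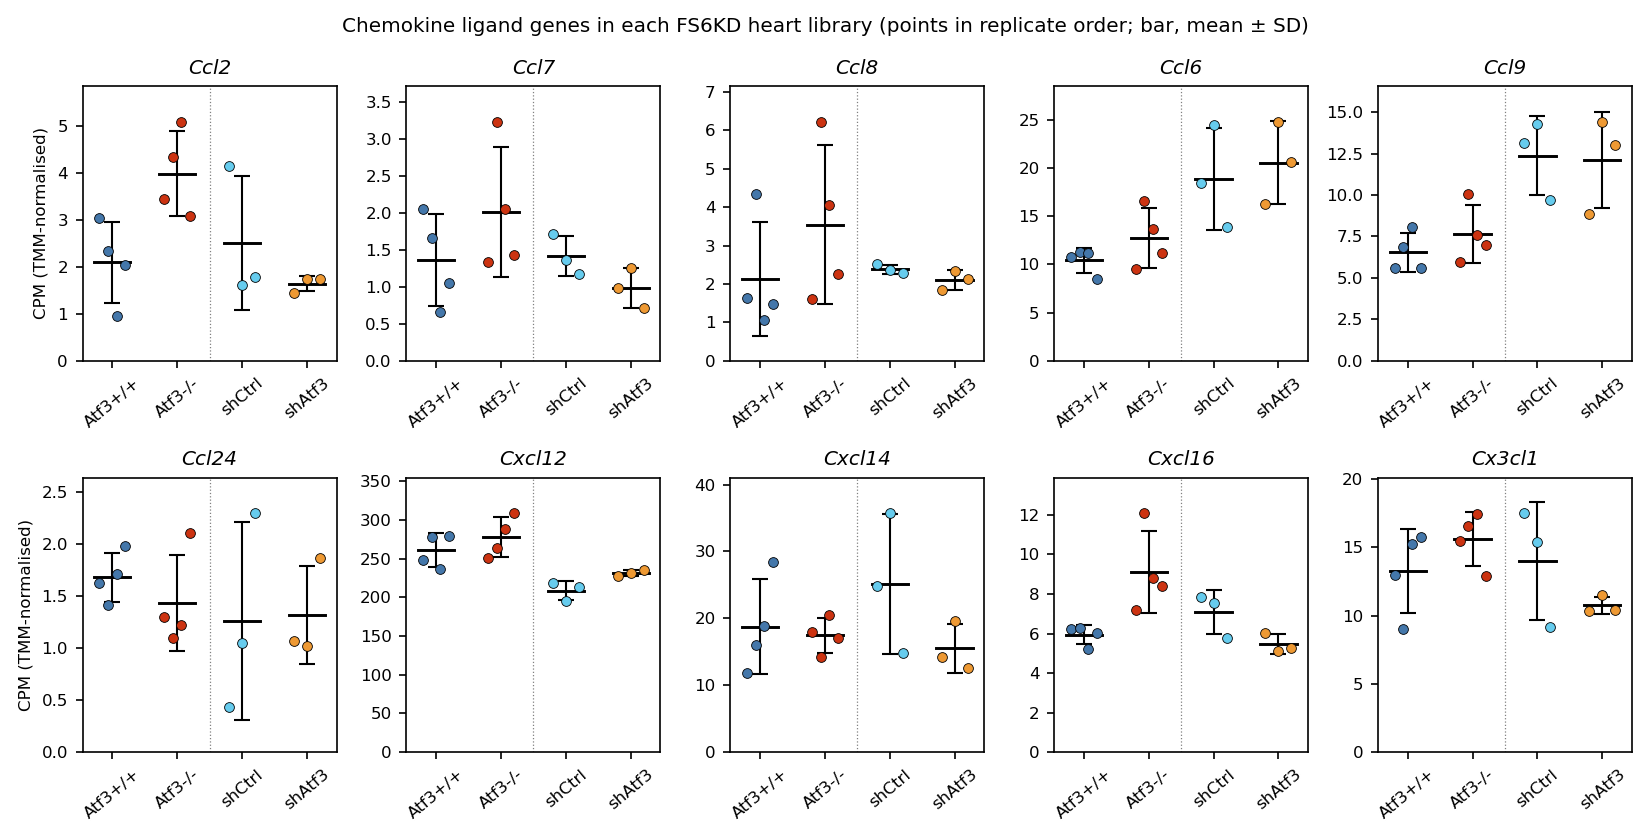
Each panel is 1 ligand gene, the vertical axis is TMM-normalised CPM from 0, and each point is a library in replicate order within its group. Lines are means with SD (n = 4 in the knockout groups, n = 3 in the AAV groups). The Atf3+/+ and Atf3-/- points do not overlap for Ccl2 and Cxcl16, nor do the AAV points for Cxcl12.

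Ccl2, the main attractant of Ccr2-bearing monocytes, had the largest estimate among the 10 genes in the knockout comparison. Its levels were 3.04, 2.34, 0.958 and 2.04 CPM in the Atf3+/+FS6KD hearts, against 3.45, 4.33, 5.09 and 3.07 CPM in the Atf3-/-FS6KD hearts. The groups did not overlap, but the highest control and the lowest knockout library were nearly level. The means of 2.09 ± 0.865 and 3.99 ± 0.905 CPM (SD, n = 4 each) gave a log2 fold change of 0.96 (SE 0.32, 95% interval 0.24 to 1.68, edgeR adjusted p = 0.395). It was 1.44 within the deeper and 0.53 within the shallower libraries, and 0.70 without Atf3+/+FS6KD replicate 3, the lowest library.

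In the AAV experiment a single library set the size of the Ccl2 estimate. The labelled shCtrl libraries held 4.15, 1.61 and 1.78 CPM and the labelled shAtf3 libraries 1.45, 1.73 and 1.73 CPM, so only shCtrl replicate 1 stood apart. The log2 fold change of −0.62 (SE 0.35, edgeR adjusted p = 0.502) was −0.05 without it. The difference between both effects was 1.58 (SE 0.53, edgeR adjusted p = 0.158), and it was 1.01 without that library.

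Ccl7 and Ccl8 are encoded in a row with Ccl2 on the same strand, and Ccl7 shares its receptor Ccr2. Both were most variable in the knockout experiment. Ccl7 was at 2.06, 1.66, 0.659 and 1.05 CPM in the Atf3+/+FS6KD hearts, against 1.33, 3.23, 2.05 and 1.43 CPM in the Atf3-/-FS6KD hearts (log2 fold change 0.60, SE 0.40, edgeR adjusted p = 0.625). Ccl8 was at 1.63, 4.34, 1.07 and 1.46 CPM against 1.61, 6.22, 4.06 and 2.25 CPM (0.79, SE 0.52, edgeR adjusted p = 0.626). For both genes Atf3-/-FS6KD replicate 2 was the highest library, and the groups overlapped. The Ccl7 estimate was 0.30 without that library, and the Ccl8 estimate ran from 0.39 without it to 1.36 without Atf3+/+FS6KD replicate 2, the one high control. Within the deeper libraries the estimates were 1.02 for Ccl7 and 1.31 for Ccl8, and within the shallower 0.30 and 0.41.

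Ccl7 was in the AAV experiment at 1.71, 1.36 and 1.18 CPM in the labelled shCtrl and at 0.978, 1.25 and 0.714 CPM in the labelled shAtf3 libraries, with a log2 fold change of −0.53 (SE 0.25, edgeR adjusted p = 0.422). Ccl8 was nearly level, at 2.51, 2.36 and 2.27 CPM against 1.84, 2.34 and 2.14 CPM (−0.18, SE 0.15, edgeR adjusted p = 0.675). Both pairs of groups overlapped. The SD of log2 CPM within groups was 0.86 for Ccl8 in the knockout experiment and 0.13 in the AAV experiment. The counts behind these genes were small, with 21 reads of Ccl7 and 57 of Ccl8 in the library that had fewest.

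Ccl6 and Ccl9, neighbouring genes whose products act on Ccr1 in the mouse, varied together between libraries, and neither passed in any comparison. Ccl6 was at 10.8, 11.2, 11.2 and 8.47 CPM in the Atf3+/+FS6KD hearts, against 9.47, 16.6, 13.7 and 11.2 CPM in the Atf3-/-FS6KD hearts (log2 fold change 0.29, SE 0.17, edgeR adjusted p = 0.592). Ccl9 was at 5.6, 6.86, 8.08 and 5.61 CPM against 5.94, 10.1, 7.61 and 7.0 CPM (0.22, SE 0.18, edgeR adjusted p = 0.691). In both genes replicate 2 of Atf3-/-FS6KD was highest and the groups overlapped. Leaving that library out lowered the estimates to 0.15 for Ccl6 and 0.07 for Ccl9.

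The same held in the AAV experiment. Ccl6 was at 18.4, 24.4 and 13.8 CPM in the labelled shCtrl and at 16.2, 24.8 and 20.7 CPM in the labelled shAtf3 libraries, with a log2 fold change of 0.12 (SE 0.21, 95% interval −0.34 to 0.58, edgeR adjusted p = 0.861). Ccl9 was at 13.1, 14.3 and 9.69 CPM against 8.86, 14.4 and 13.0 CPM (−0.03, SE 0.19, 95% interval −0.47 to 0.40, edgeR adjusted p = 0.964). Replicate 2 was the highest library of both genes in both labelled groups, and the signs of both estimates changed when single libraries were left out.

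Ccl24, which attracts eosinophils through Ccr3, had the lowest median CPM per kb of the 10, with 18 reads in the library that had fewest. In plain CPM the median of Ccl7 was slightly lower (1.34 against 1.36 CPM). It was at 1.63, 1.42, 1.71 and 1.99 CPM in the Atf3+/+FS6KD hearts, against 1.3, 1.10, 1.23 and 2.11 CPM in the Atf3-/-FS6KD hearts. It was 1 of the 2 genes with an estimate below 0 in the knockout comparison (−0.22, SE 0.23, edgeR adjusted p = 0.762), with 3 of 4 knockout libraries below all controls and replicate 4 above them. The estimate was −0.49 without Atf3-/-FS6KD replicate 4 and −0.12 without Atf3-/-FS6KD replicate 2. In the AAV experiment it ran from 0.434 to 2.30 CPM within the labelled shCtrl group alone and from 1.03 to 1.87 CPM in the labelled shAtf3 group. The log2 fold change of 0.07 had an SE of 0.50 and a 95% interval from −1.07 to 1.21.

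Cxcl12 had the smallest SD of log2 CPM within groups among the 10 genes, at 0.13 in the knockout and 0.06 in the AAV experiment. It was at 248, 279, 237 and 280 CPM in the Atf3+/+FS6KD hearts, against 251, 264, 289 and 309 CPM in the Atf3-/-FS6KD hearts, and the groups overlapped. The log2 fold change was 0.09 (SE 0.08, 95% interval −0.10 to 0.28, edgeR adjusted p = 0.727). It was −0.03 within the shallower and 0.21 within the deeper libraries. In the AAV experiment all labelled shAtf3 libraries (228, 231 and 236 CPM) were above all labelled shCtrl libraries (218, 195 and 213 CPM). The means were 232 ± 4.06 and 209 ± 12.4 CPM (SD, n = 3 each), and the log2 fold change was 0.15 (SE 0.06, 95% interval 0.01 to 0.29, edgeR adjusted p = 0.360). The difference between the effects was −0.06 (SE 0.11, 95% interval −0.30 to 0.18), which turned to 0.05 when library size alone was used for scaling.

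Cxcl14, a ligand of epithelial and stromal cells whose signalling receptor is still debated, had the largest estimate among the 10 genes in the AAV comparison with all libraries included. It was at 24.8, 35.7 and 14.9 CPM in the labelled shCtrl libraries and at 14.3, 19.7 and 12.6 CPM in the labelled shAtf3 libraries. Replicate 2 was highest in both groups, and the groups overlapped. The log2 fold change was −0.69 (SE 0.28, 95% interval −1.33 to −0.06, edgeR adjusted p = 0.352). It was −0.96 with an edgeR adjusted p of 0.0446 without shCtrl replicate 3, and −0.35 without shCtrl replicate 2. In the knockout experiment Cxcl14 was at 11.8, 16, 18.9 and 28.4 CPM in the Atf3+/+FS6KD hearts, against 18, 14.3, 20.6 and 17.0 CPM in the Atf3-/-FS6KD hearts, with a log2 fold change of −0.11 (SE 0.24, edgeR adjusted p = 0.900) whose sign turned without Atf3+/+FS6KD replicate 4 (0.16) and within the shallower libraries (0.22).

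Read across libraries, the ligands did not move as 1 group. After the mean of each experiment was subtracted, log2 CPM of Ccl6 and Ccl9 had a Pearson r of 0.88 (Spearman rho 0.84) over the 14 libraries, and that of Ccl2 and Ccl7 an r of 0.80 (rho 0.66). Ccl7 also ran with Cxcl16 (r 0.78) and Ccl8 (r 0.77). Ccl24 ran against most of the others, with the lowest r of the 45 pairs at −0.61 with Cx3cl1 (rho −0.67). These values describe libraries that share depth and group, and no p is given.

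**Figure D4:**
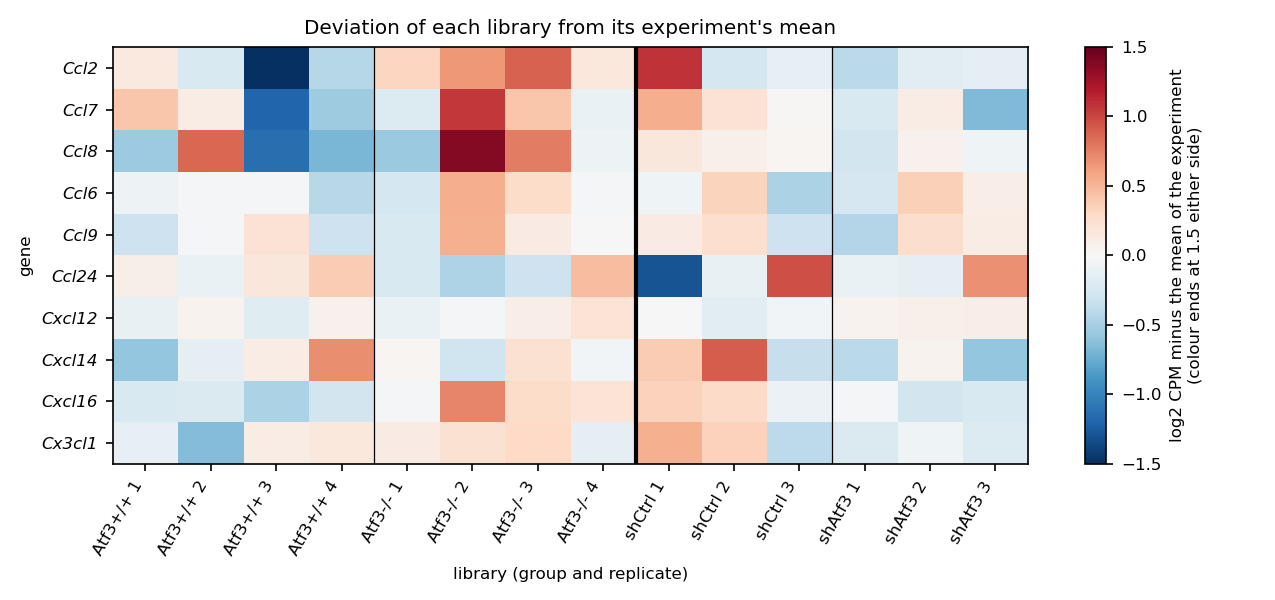
Rows are ligand genes, columns are the 14 libraries, and colour is log2 CPM minus the mean of the experiment (red above, blue below). The thick line parts the experiments and thin lines part the groups. Atf3-/- replicate 2 is red for Ccl6, Ccl7, Ccl8, Ccl9 and Cxcl16, Atf3+/+ replicate 3 is blue for Ccl2, Ccl7 and Ccl8, and shCtrl replicate 1 is red for Ccl2 and blue for Ccl24.

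Single libraries accounted for many of the extremes. Atf3-/-FS6KD replicate 2 was the highest of the 8 knockout libraries for 5 genes (Ccl6, Ccl7, Ccl8, Ccl9 and Cxcl16), and Atf3+/+FS6KD replicate 3 the lowest for 5 (Ccl2, Ccl7, Ccl8, Cxcl12 and Cxcl16). Labelled shCtrl replicate 1 was the highest of the 6 AAV libraries for 5 (Ccl2, Ccl7, Ccl8, Cxcl16 and Cx3cl1). In Atf3-/-FS6KD replicate 2 the summed level of 9 lymphocyte markers was 7.09 CPM, against 2.48 to 3.93 CPM in the other 7 knockout libraries, and Cxcl9, an interferon-induced T cell attractant, was at 19.2 CPM against 3.08 to 10.2 CPM. The part of lymphocytes in the ligand values of this library was not tested.

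For each ligand, the 3 genes with the most similar pattern were sought among 11803 genes by Pearson r of the same centred values over 14 libraries. They were picked for the highest r out of so many genes that high values arise by selection alone. The lists are a description, and no p is given. Cxcl16 was most like Rac2 (0.93), Arl6ip1 (0.92) and Cd53 (0.91), and Ccl8 most like Fcgr1 (0.89), Clic1 (0.89) and Ifitm3 (0.88). Rac2, Cd53 and Fcgr1 are genes of leukocytes, but they were picked out of all the genes listed here. Which cells made the ligand RNA was not tested. Ccl9 was most like Cttnbp2nl (0.95), Prkd2 (0.92) and Stat3 (0.88), and Ccl6 like Cttnbp2nl (0.89), Ccl9 (0.88) and Gfpt2 (0.88). Cx3cl1 was most like Slc16a6 (0.93), Orai2 (0.93) and Bcl2 (0.91), and Cxcl12 like Yipf7 (0.92), Zfyve21 (0.80) and H3f3a (0.79). The remaining sets were Tmpo (0.89), Fmnl3 (0.88) and Lta4h (0.88) for Ccl2, and Rbpj (0.86), Dram1 (0.86) and Sting1 (0.86) for Ccl7. Insig1 (0.85), Smg5 (0.85) and Kmt2b (0.84) led for Ccl24, and Trim2 (0.86), Cyp2d22 (0.84) and Slc46a1 (0.82) for Cxcl14.

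Among the receptors of these ligands, Ccr3, Ccr8 and Ackr1 did not exceed 1 CPM in any library, and none of those described here passed the adjusted threshold of edgeR in either comparison or in the difference. Ccr2, the monocyte receptor of Ccl2 and Ccl7, was at 2.20, 2.77, 1.47 and 2.82 CPM in the Atf3+/+FS6KD hearts, against 4.89, 5.36, 4.29 and 2.61 CPM in the Atf3-/-FS6KD hearts. The groups overlapped through replicate 4, and the estimate was 0.89 (SE 0.27) with an edgeR adjusted p of 0.383. In the AAV comparison Ccr2 gave −0.27 (SE 0.27, edgeR adjusted p = 0.733), and −0.0021 without shCtrl replicate 1. Cx3cr1 was at 5.95, 3.66, 4.44 and 7.47 CPM in the Atf3+/+FS6KD hearts, against 9.33, 9.64, 10.9 and 7.57 CPM in the Atf3-/-FS6KD hearts, with no overlap (0.79, SE 0.21, edgeR adjusted p = 0.331, DESeq2 adjusted p = 0.0367).

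Cx3cr1 was in the AAV experiment at 7.77, 4.22 and 3.66 CPM in the labelled shCtrl and at 3.38, 3.17 and 3.67 CPM in the labelled shAtf3 libraries (−0.62, SE 0.26, edgeR adjusted p = 0.375). As for Ccl2, shCtrl replicate 1 was the highest library, and without it the Cx3cr1 estimate was −0.21. The difference between the effects was 1.4 (SE 0.37, edgeR adjusted p = 0.0968, DESeq2 adjusted p = 0.0122). Cxcr4, the receptor of Cxcl12, had log2 fold changes of 0.26 (SE 0.17) and −0.46 (SE 0.20), and the scavenging receptor Ackr3 of 0.04 (SE 0.09) and −0.06 (SE 0.11). Ackr2, which removes inflammatory CC ligands, was at 3.60, 3.04 and 2.09 CPM in the labelled shCtrl and at 1.99, 1.67 and 1.87 CPM in the labelled shAtf3 libraries, without overlap (−0.66, SE 0.21, edgeR adjusted p = 0.244, and 0.0387 without shCtrl replicate 3). The groups of Ccr1 overlapped in both experiments, and Cxcr6, the receptor of Cxcl16, was at 0.238 to 1.08 CPM in the 14 libraries. Cxcr6 was tested in the knockout comparison (0.29, SE 0.29, edgeR adjusted p = 0.762) and in the difference (0.99, SE 0.49, edgeR adjusted p = 0.326), and in the AAV comparison it did not exceed 1 CPM. It exceeded that limit before normalisation in Atf3-/-FS6KD replicate 2 alone, a library of the group with the higher mean.

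**Figure D5:**
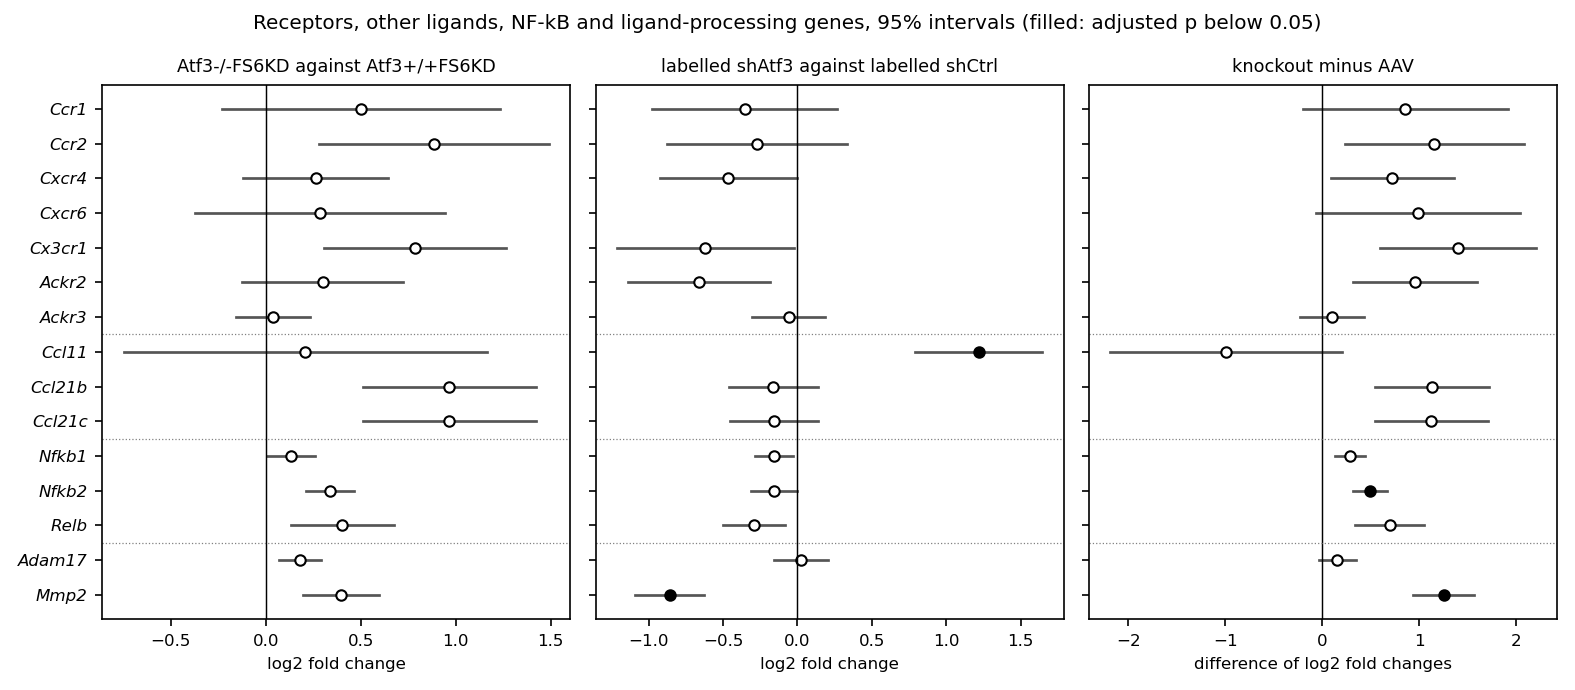
Rows are receptors, other ligands, NF-kB genes and ligand-processing genes, parted by dotted lines, and the horizontal axes give edgeR log2 fold changes for the knockout and AAV comparisons and their difference. Lines are 95% intervals, and filled points have an adjusted p below 0.05: Ccl11 and Mmp2 in the AAV comparison, and Nfkb2 and Mmp2 in the difference.

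Over the whole receptor list of 19 genes, 9 were tested in the knockout comparison, where 0 passed and 9 had an estimate above 0 (median 0.48), against 50.2% of all genes, and 6 in the AAV comparison, where 0 passed and 5 were below 0 (median −0.31), against 50.9%. Of the 31 other ligands, 13 were tested in the knockout comparison, with 0 passing, 12 above 0 (50.2% of all genes) and a median of 0.47. However, 3 of the 9 receptors (Ccr7, Cxcr3 and Cxcr6) and 3 of the 13 ligands (Ccl5, Ccl22 and Cxcl10) exceeded the filter of 1 CPM only in Atf3-/-FS6KD libraries, so their entry into these counts was not independent of an estimate above 0. The smallest p-values were those of Ccl21b and Ccl21c, genes with near-identical copies whose reads cannot be assigned with certainty. Both had a log2 fold change of 0.97 (SE 0.20, edgeR adjusted p = 0.253 and DESeq2 adjusted p = 0.00259 for both) and groups without overlap. Their levels were nearly equal in each library, so they are not independent. Ccl21a, which shares an identical run of 208 bases with Ccl21b, gave 0.52 (SE 0.14, edgeR adjusted p = 0.344), and its groups overlapped. Each of these entries counts separately among the 13.

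In the AAV comparison 1 of 11 other ligands passed, against 0.539% of all genes. Ccl11 (eotaxin), which lies between Ccl7 and Ccl12 on chromosome 11 and attracts eosinophils as Ccl24 does, rose from 0.676, 0.628 and 0.653 CPM in the labelled shCtrl libraries to 1.60, 1.60 and 1.36 CPM in the labelled shAtf3 libraries. Its log2 fold change of 1.22 had an SE of 0.19 and an edgeR adjusted p of 0.0348. It exceeded the filter of 1 CPM only through the labelled shAtf3 libraries, the group in which it was high, so its being among the genes tested was not independent of its difference. Its neighbours Ccl2 and Ccl7 had estimates on the other side of 0. Over 12 alternatives the edgeR, limma-trend or DESeq2 adjusted p of Ccl11 ran from 0.00395 to 0.167, and it passed in 6 of them. It did not pass with the replicate block, nor when shCtrl replicate 1, shCtrl replicate 2 or any of the 3 labelled shAtf3 libraries was left out. In the knockout comparison Ccl11 was not called (0.21, SE 0.42, edgeR adjusted p = 0.895), and its difference between the experiments was not called either (−0.99, SE 0.56, edgeR adjusted p = 0.389).

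NF-kB subunits and cytokines were examined because NF-kB drives many chemokine genes. Of 12 such genes, 9 were tested in the knockout comparison, with 0 passing and 9 above 0, against 50.2% of all genes (median 0.13). Nfkb2 was at 29.2, 27.1, 28.2 and 28.8 CPM in the Atf3+/+FS6KD hearts, against 33.3, 35.8, 37.2 and 36.8 CPM in the Atf3-/-FS6KD hearts, without overlap (0.34, SE 0.06, edgeR adjusted p = 0.248, DESeq2 adjusted p = 0.000153). In the AAV experiment it was at 28.3, 27.5 and 27.6 CPM against 23.6, 24.6 and 26.4 CPM in the labelled shAtf3 libraries, again without overlap (−0.16, SE 0.07, edgeR adjusted p = 0.375). The difference between the effects was 0.49 (SE 0.08) and passed (edgeR adjusted p = 0.0320), as 1 of 9 in this list, against 0.166% of all genes. It passed in 11 of 19 alternatives (highest adjusted p 0.117), and not with the replicate block or when replicate 2 or 4 of Atf3+/+FS6KD, replicate 2 of Atf3-/-FS6KD, or replicate 1 or 2 of either labelled AAV group was left out. Relb gave 0.40 (SE 0.12) and −0.29 (SE 0.09), with a difference of 0.69 (SE 0.16, edgeR adjusted p = 0.0877, DESeq2 adjusted p = 0.00889), and Nfkb1 gave 0.13 (SE 0.06) and −0.16 (SE 0.06), with a difference of 0.29 (SE 0.07, edgeR adjusted p = 0.0888, DESeq2 adjusted p = 0.0188). Both differences passed in 2 of 19 alternatives, DESeq2 and scaling by library size alone.

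Of 6 genes that process these ligands, Mmp2, a matrix metalloprotease that also trims chemokines, passed in the AAV comparison and in the difference, that is 1 of 6 in each, against 0.539% and 0.166% of all genes. It was at 85.0, 84.6 and 82.1 CPM in the labelled shCtrl and at 40.7, 43.2 and 55.0 CPM in the labelled shAtf3 libraries, and fell by 0.86 on the log2 scale (SE 0.10, edgeR adjusted p = 0.0250). In the knockout experiment it was at 64.0, 62.4, 60.7 and 60.3 CPM in the Atf3+/+FS6KD hearts, against 66.6, 85.6, 89.6 and 83.4 CPM in the Atf3-/-FS6KD hearts (0.40, SE 0.09, edgeR adjusted p = 0.277, DESeq2 adjusted p = 0.0100), and the difference was 1.25 (SE 0.15, edgeR adjusted p = 0.0122). Adam17, a sheddase of Cx3cl1, had no overlap in the knockout comparison (0.18, SE 0.05, edgeR adjusted p = 0.331, DESeq2 adjusted p = 0.0470) and an estimate of 0.02 (SE 0.08) in the AAV comparison. Without labelled shCtrl replicate 2, shAtf3 replicate 1 or shAtf3 replicate 2 the AAV call of Mmp2 was lost, and without shAtf3 replicate 2 that of the difference (highest adjusted p 0.159 and 0.0640).

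Markers of the cells that make or receive these ligands were summed in each library. The 15 macrophage markers summed to 390 to 479 CPM in Atf3+/+FS6KD and 421 to 607 CPM in the Atf3-/-FS6KD hearts, with 0 of 15 called (0.0% of all genes) and 12 estimates above 0 (50.2% of all genes, median 0.27). They summed to 583 to 642 CPM in the labelled shCtrl and 530 to 569 CPM in the labelled shAtf3 libraries, with 0 called (0.539% of all genes) and 11 below 0 (50.9% of all genes, median −0.17). The 10 fibroblast markers summed to 2846 to 3913 CPM and 3596 to 4352 CPM in the knockout groups, with 10 estimates above 0, 0 called and 7 at an unadjusted p below 0.05, all higher, against 5.41% of all genes. In the AAV groups they summed to 3925 to 4963 and 3086 to 3168 CPM, and 5 of 10 (Col1a1, Col1a2, Col3a1, Dpt and Postn) were called lower in the libraries labelled shAtf3, against 0.539% of all genes called in either direction. None of the 5 was called without shCtrl replicate 2 or without any 1 of the labelled shAtf3 libraries, and with the replicate block only Postn was. The difference between the effects holds only with the AAV labels as given. In it 4 of 10 (Col1a1, Col1a2, Col3a1 and Dpt) were called, all above 0, against 0.166% of all genes. That count was 0 without shAtf3 replicate 1 or shAtf3 replicate 2, 1 (Col3a1) without Atf3-/-FS6KD replicate 2, shCtrl replicate 1 or shCtrl replicate 2, and 2 (Col1a2 and Col3a1) without Atf3+/+FS6KD replicate 4 or shAtf3 replicate 3. DESeq2 called 3 of the 10 in the knockout comparison (Col1a1, Col1a2 and Col3a1), 9 in the AAV comparison and 9 in the difference, against 1.33%, 2.02% and 4.26% of all genes with that tool.

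The endothelial sums overlapped in both experiments (888 to 1055 against 978 to 1101 CPM, and 885 to 963 against 899 to 1018 CPM). The lymphocyte sums were low everywhere, at 2.48 to 3.60 against 2.96 to 7.09 CPM and 2.69 to 3.57 against 2.14 to 3.5 CPM over 9 genes. No marker of these 4 lists was at 0 in every library of a group. The other lists were monocyte, neutrophil, mast cell, mural, cardiomyocyte, atrial, adipocyte, erythrocyte, mesothelial and immediate early genes. In them edgeR called 0 genes in either comparison or in the difference. The shares of all genes called were 0.0% in the knockout comparison, 0.539% in the AAV comparison and 0.166% in the difference. Several of these markers did not exceed the filter and were not tested. The cardiomyocyte markers, which define the tissue, summed to 56038 to 68118 CPM in Atf3+/+FS6KD and 46069 to 62694 CPM in Atf3-/-FS6KD hearts. Of these 7 markers, 6 had an estimate below 0 there, against 49.8% of all genes. They summed to 51647 to 59025 CPM in the labelled shCtrl and 56532 to 61615 CPM in the labelled shAtf3 libraries. In that comparison 7 were above 0, against 49.1% of all genes. Over the 14 libraries, with the mean of each experiment subtracted, Ccl8 followed the summed monocyte markers with a Pearson r of 0.88 (Spearman rho 0.91). Cxcl16 followed the lymphocyte sum with an r of 0.82 (rho 0.80) and the macrophage sum with an r of 0.76 (rho 0.65), Ccl7 the lymphocyte sum with an r of 0.77 (rho 0.69), and Cx3cl1 the fibroblast sum with an r of 0.73 (rho 0.72). These were the 5 highest r of the ligands with these sums. The libraries share depth and group, no p is given, and the part of these cells in the ligand results was not tested.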

How the data were processed

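Total RNA of whole hearts had been made into stranded mRNA libraries. Per the submitters' processing notes, the authors counted reads with featureCounts 2.0.0 on GRCm38.p6, and they deposited an estimated count for each gene in each library, neither normalized nor pooled. The aligner is not given in the sources used here. Between 19.35% and 24.41% of values were not whole, and all were rounded before testing. All 14 deposited columns were used. Of 42396 genes, 40017 matched a RefSeq symbol, and 2379 entries with an added number were read as copies on alternate loci. Strand use in the counting is not stated, so overlapping or antisense genes can share reads.

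Libraries were grouped by the labels. In each comparison, genes that exceeded 1 CPM in any library were tested with edgeR 4.0.16 in R 4.3.3, using TMM scaling and its two-sided quasi-likelihood test without covariates. Calls had a Benjamini-Hochberg adjusted p below 0.05 over all genes tested, and the difference between experiments was an interaction in 1 fit. The count test stood in for the per-gene test on normalised values that the study states. Log2 CPM used a prior count of 2. Alternatives were DESeq2 1.42.0, limma-trend (limma 3.58.1), scaling by library size, no filter, merged copies, a replicate block, depth batches and leaving out each library. The procedures were checked on simulated counts, with the same spread for all genes and effects larger than those estimated for the ligands. The check therefore does not show the power for the ligands. In it DESeq2 was allowed a larger share of false calls than the other tools. CPM per kb used GENCODE M21 exonic lengths of protein-coding transcripts. Totals of 30085432 to 134920825 counts per library set the counting precision, which is lowest for the rare ligands. The members and the lists of receptors, other ligands, NF-kB, processing and marker genes were chosen with earlier results of these data known. Named beside the members were their receptors (1 is not reported here), and from each other list the genes that passed, or the 2 with the smallest p. Cxcl9 and the single libraries named were chosen after their values were seen.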

Additional observations from a re-analysis of the deposited data

Results flagged for a closer look

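In 56 groups of 4 libraries, from 28 genes, 3 values stood apart by Dixon's criterion at its 95% critical value, which chance alone exceeds in about 1 of 20 groups. They were Ccl8 at 4.34 CPM in Atf3+/+FS6KD replicate 2, Cxcr4 at 12.0 CPM in Atf3-/-FS6KD replicate 3 and Atf3 at 25.8 CPM in Atf3+/+FS6KD replicate 1. The gap to the nearest library took up most of the group's range in each case, and groups of 3 were not examined. Of the genes named, 6 differed between the experiments in the edgeR interaction test: Nfkb2, by 0.49 on the log2 scale (adjusted p = 0.0320), Mmp2, by 1.25 (adjusted p = 0.0122), and the fibroblast markers Col1a1, by 1.47 (adjusted p = 0.0348), Col1a2, by 1.3 (adjusted p = 0.0199), Col3a1, by 1.76 (adjusted p = 0.0140), and Dpt, by 0.76 (adjusted p = 0.0276). All 6 were above 0 in the knockout and below 0 in the AAV comparison, and the differences rest on the AAV labels, which neither Atf3 nor the column names of the deposited table bear out.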

How the results depend on the processing

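The count of genes called in the knockout comparison was 0, and it was 208 with DESeq2, 2 without the filter, 8 within the deeper libraries and 0 to 15 when 1 library was left out (15 without replicate 1 of Atf3+/+FS6KD and also without replicate 3 of Atf3-/-FS6KD). In the AAV comparison 82 genes were called, against 308 with DESeq2, 304 without the filter and 1 to 285 with 1 library left out (1 without shAtf3 replicate 2, 285 without shCtrl replicate 3). For the difference it was 26, against 205 with library size alone, 669 with DESeq2 (380 above and 289 below 0, where the 26 were 24 and 2), 61 without the filter, 43 with copies merged and 0 to 168 with 1 library left out (0 without shAtf3 replicate 2, 168 without Atf3+/+FS6KD replicate 3). With the replicate block the counts were 0, 20 and 56. The block pairs libraries by the replicate numbers of their labels alone. Deviations of same-numbered libraries correlated at 0.00635 to 0.145 in the knockout and at −0.000366 to 0.151 in the AAV experiment, so not every pair exceeded 0.1. Differently numbered libraries correlated at −0.244 to 0.19 in the knockout and at −0.178 to 0.0894 in the AAV experiment. In the knockout experiment the numbers also go with depth, since replicates 3 and 4 are the deeper libraries of both genotypes. The block changed no call of the 10 ligand genes, while Ccl11 and the difference of Nfkb2 were no longer called.

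For the 10 ligand genes, 458 of 480 estimates under an alternative kept their direction and their side of the threshold, 6 passed it newly and 16 turned sign. Within the shallower libraries Cxcl12 was −0.027 and Cxcl14 0.22, and within the deeper Cx3cl1 was −0.032. Scaling by library size turned the difference of Cxcl12 to 0.047. It moved the median of all genes by 0.06 in the knockout comparison and by 0.10 in the difference. Leaving out 1 library, Cxcl14 in the knockout comparison ran from −0.28 to 0.16. In the AAV comparison Ccl6 ran from −0.061 to 0.35, Ccl9 from −0.18 to 0.15 and Ccl24 from −0.35 to 0.82. The difference ran from −0.056 to 0.35 for Ccl6 and from −1.05 to 0.12 for Ccl24. The cause of these turns was not tested. Depth limits Ccl24 and Ccl7 most, with 18 and 21 reads in their lowest libraries.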
